A study of Homo sapiens with 36 samples.

Results

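The E2F family members E2F1 to E2F8 and the pocket proteins RBL1 and RBL2 were followed across 36 RNA-seq libraries of A2780, a cell line from a human ovarian cancer. The members were fixed by name and matched by symbol, and all 10 were found among the 57820 genes of the count table. The set holds 3 activator E2Fs (E2F1, E2F2, E2F3), 5 repressor E2Fs (E2F4 to E2F8) and 2 pocket proteins. The 3 lines were the platinum-sensitive parental cells (wt), an isogenic line made resistant by long exposure of the parental cells to cisplatin (cis), and cis cells that regained serine synthesis when grown without serine and glycine (cis SSP). Cells of each line were kept in complete or serine/glycine-free medium (-SG), untreated or with carboplatin (carbo), a platinum drug that crosslinks DNA. This gives 12 conditions of 3 libraries each. The labels write the carboplatin dose as 6 M, other assays of these cells used micromolar doses, and the unit for the sequenced cells is therefore doubtful. The labels give no harvest time. Each line is a single culture lineage, and legends of the study describe the libraries as technical replicates. The p-values below therefore measure the spread between libraries and not between independent cultures.

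E2F proteins are transcription factors that control entry into S phase. E2F1, E2F2 and E2F3 bind DNA with a DP partner (TFDP1 or TFDP2) and activate genes of DNA replication, while E2F4 and E2F5 act mainly as repressors when bound to a pocket protein. RBL1 (p107) and RBL2 (p130) are pocket proteins, and RBL2 with E2F4 and the MuvB core forms the DREAM complex that silences cell cycle genes in resting cells. E2F6 represses without pocket proteins and works with polycomb factors. E2F7 and E2F8 are atypical repressors that bind without a DP partner and dampen the genes that activator E2Fs turn on, several E2F genes among them. Known targets of E2F proteins include the E2F1, E2F2, E2F8 and RBL1 genes, and this is not a full list of the targets among the members.

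In GRCh37 the 10 genes lie on 8 chromosomes, and all are annotated as protein-coding. E2F1 (ENSG00000101412.9) spans chr20:32263283-32274191 and RBL1 (ENSG00000080839.7) chr20:35624752-35724400, both on the minus strand. E2F2 (ENSG00000007968.6, chr1:23832930-23857725), E2F6 (ENSG00000169016.12, chr2:11584501-11606303), E2F7 (ENSG00000165891.11, chr12:77415028-77459349) and E2F8 (ENSG00000129173.8, chr11:19245610-19263167) are also on the minus strand. E2F3 (ENSG00000112242.10, chr6:20402110-20493945), E2F4 (ENSG00000205250.4, chr16:67226058-67232821), E2F5 (ENSG00000133740.6) and RBL2 (ENSG00000103479.10, chr16:53467889-53525560) are on the plus strand. Exons of E2F5 share 991 bases with RBIS on the other strand and exons of RBL2 share 609 with AKTIP. The strand setting of the counting is not given in the sources used here, so reads in these overlaps cannot be assigned with certainty. Counts on annotated pseudogenes were small, at most 0.151% of the parent gene (E2F3P2 against E2F3).

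Promoters from RefSeq (GRCh38.p14, 250 bases before to 50 after each start) were matched for 8 of the 10 members. They were searched on both strands for the E2F consensus, spelled TTTCCCGC, TTTCGCGC, TTTGCCGC or TTTGGCGC, which is found in 3.31% of 35116 promoters. A match was present in E2F1, E2F2, E2F3 and RBL1, and no match was present in the windows of E2F4, E2F6, E2F7 and RBL2. The 100 bases before the start are shown for E2F1, E2F2 and RBL1, which fell with carboplatin in wt cells, and for E2F3 and E2F7, which rose. Capitals mark the E2F consensus, on either strand. Sequences read 5′ to 3′ on the strand of the gene, and their coordinates are chr20:33686386-33686485 (E2F1), chr1:23531234-23531333 (E2F2), chr20:37095998-37096097 (RBL1), chr6:20401779-20401878 (E2F3) and chr12:77065570-77065669 (E2F7).
E2F1: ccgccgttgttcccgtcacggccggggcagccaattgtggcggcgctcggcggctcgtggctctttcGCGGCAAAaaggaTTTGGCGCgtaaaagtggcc
E2F2: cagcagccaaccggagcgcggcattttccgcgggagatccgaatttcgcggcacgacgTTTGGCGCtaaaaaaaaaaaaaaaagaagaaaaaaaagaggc
RBL1: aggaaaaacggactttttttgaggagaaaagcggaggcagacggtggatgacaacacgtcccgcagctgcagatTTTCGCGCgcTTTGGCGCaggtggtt
E2F3: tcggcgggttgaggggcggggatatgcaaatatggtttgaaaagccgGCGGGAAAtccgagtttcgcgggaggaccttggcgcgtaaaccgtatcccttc
E2F7: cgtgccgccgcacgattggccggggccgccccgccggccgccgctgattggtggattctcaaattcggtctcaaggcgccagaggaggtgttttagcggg

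The E2F1 and RBL1 windows hold 2 matches each, which start at positions -33 and -20 (E2F1) and -26 and -16 (RBL1), counted from the start with -1 as the base before it. The single match starts at -42 in E2F2 and at -53 in the first of the 2 E2F3 promoters. The cell cycle homology region of DREAM targets, searched as TTTGAA on both strands, was found in 15.2% of all promoters. Among the members it was found in that E2F3 promoter (-65) and 24 bases after the start in 1 of the 2 RBL2 promoters. These are matches of letters and say nothing about binding. E2F1, E2F2 and RBL1, which fell in treated wt cells, and E2F3, which rose, all carry the consensus, and E2F7, which rose, has none in this window. RBL2, which fell, and E2F4 and E2F6, which rose, have none either. E2F5 and E2F8, which fell, had no promoter to search.

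Total counts on genes were 13074937 to 20441582 per library, and a member had 52 to 2740 counts in a library. Library 25 (cis SSP, replicate 1) and library 32 (cis SSP -SG, replicate 2) stood apart. Their log2 differences from the other libraries of the condition had an SD of 0.68 and 0.70 over genes, and their Spearman rho with transcript length was -0.66 in both. Library 11 (wt -SG carbo, replicate 2) showed the same trend at a smaller size (SD 0.30, rho -0.62). The reads on no feature made up 17.9% in library 23 and 14.9% in library 24 (cis -SG carbo), against at most 9.31% elsewhere. Comparisons that hold library 25 or 32, and values over condition means, are also given without these libraries, and the cause of their difference was not tested. Of 9 markers of ovarian carcinoma, 2 (KRT8 and KRT18) had a median over the 36 libraries of at least 1 CPM (counts scaled to the size of the library). PAX8 and MUC16 had medians of 0.0704 and 0 CPM. KRT8 and KRT18 had means of 0.346 and 0.614 CPM in untreated wt cells in complete medium, and 0.597 and 17.3 CPM in such cis cells. Of 8 markers of other cell types, the blood markers PTPRC and CD3E had medians of 0. The summed level was 527.7 to 1826.2 CPM in wt cells, mostly from the collagen genes COL1A1 and COL1A2, and 6.11 to 10.3 CPM in cis cells. In cis cells with carboplatin in complete medium the marker ACTA2 had a mean of 6.6 CPM, COL1A1 2.52 CPM and COL1A2 0.111 CPM. The part of this difference in summed level in the results between wt and cis cells was not tested.

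Levels are given as CPM with TMM scaling over the 36 libraries, and levels of different genes are compared as CPM per kilobase of exon. Each log2 fold change uses TMM scaling within its own comparison, so it can differ from the change in the CPM printed beside it. In wt cells E2F4 had the highest level per length, 37 ± 0.647 CPM per kb (SD, n = 3), followed by E2F1 with 16.6 ± 0.55. E2F3 and RBL2 came next with 11.4 ± 0.236 and 11.1 ± 0.108 CPM per kb, and their libraries overlapped. E2F5 (7.73 ± 0.6) and E2F7 (7.44 ± 0.139) overlapped in CPM per kb, as did E2F2 (5.7 ± 0.0998) and E2F6 (5.37 ± 0.226). RBL1 followed with 4.91 ± 0.244 and E2F8 was lowest with 3.61 ± 0.225 CPM per kb. In cis cells the order by CPM per kb was E2F4 (41.6 ± 0.912), E2F1 (24.8 ± 1.2), E2F2 (19.1 ± 0.401) and E2F3 (16.4 ± 0.843), with the other members at 10.5 or below, so E2F2 stood above E2F3 there. In wt cells, with the length of the longest transcript in place of all exons, RBL2 (14.3 CPM per kb) came above E2F3 (11.7) and E2F6 (6.34) above E2F2 (5.99). Over the 12 conditions E2F2 had the widest range of condition means, from 8.38 CPM in wt carbo to 104.3 CPM in cis, a 12.4-fold span. The span was 5.78-fold for E2F8, 4.74-fold for E2F1 and 4.42-fold for RBL1. It was narrowest for E2F4 at 1.36-fold and E2F6 at 1.46-fold. Without libraries 25 and 32 the span was 12.4-fold for E2F2, 6.35-fold for E2F8, 4.75-fold for RBL1, 4.59-fold for E2F1, 1.46-fold for E2F6 and 1.39-fold for E2F4, so RBL1 then came above E2F1.

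**Figure D1:**
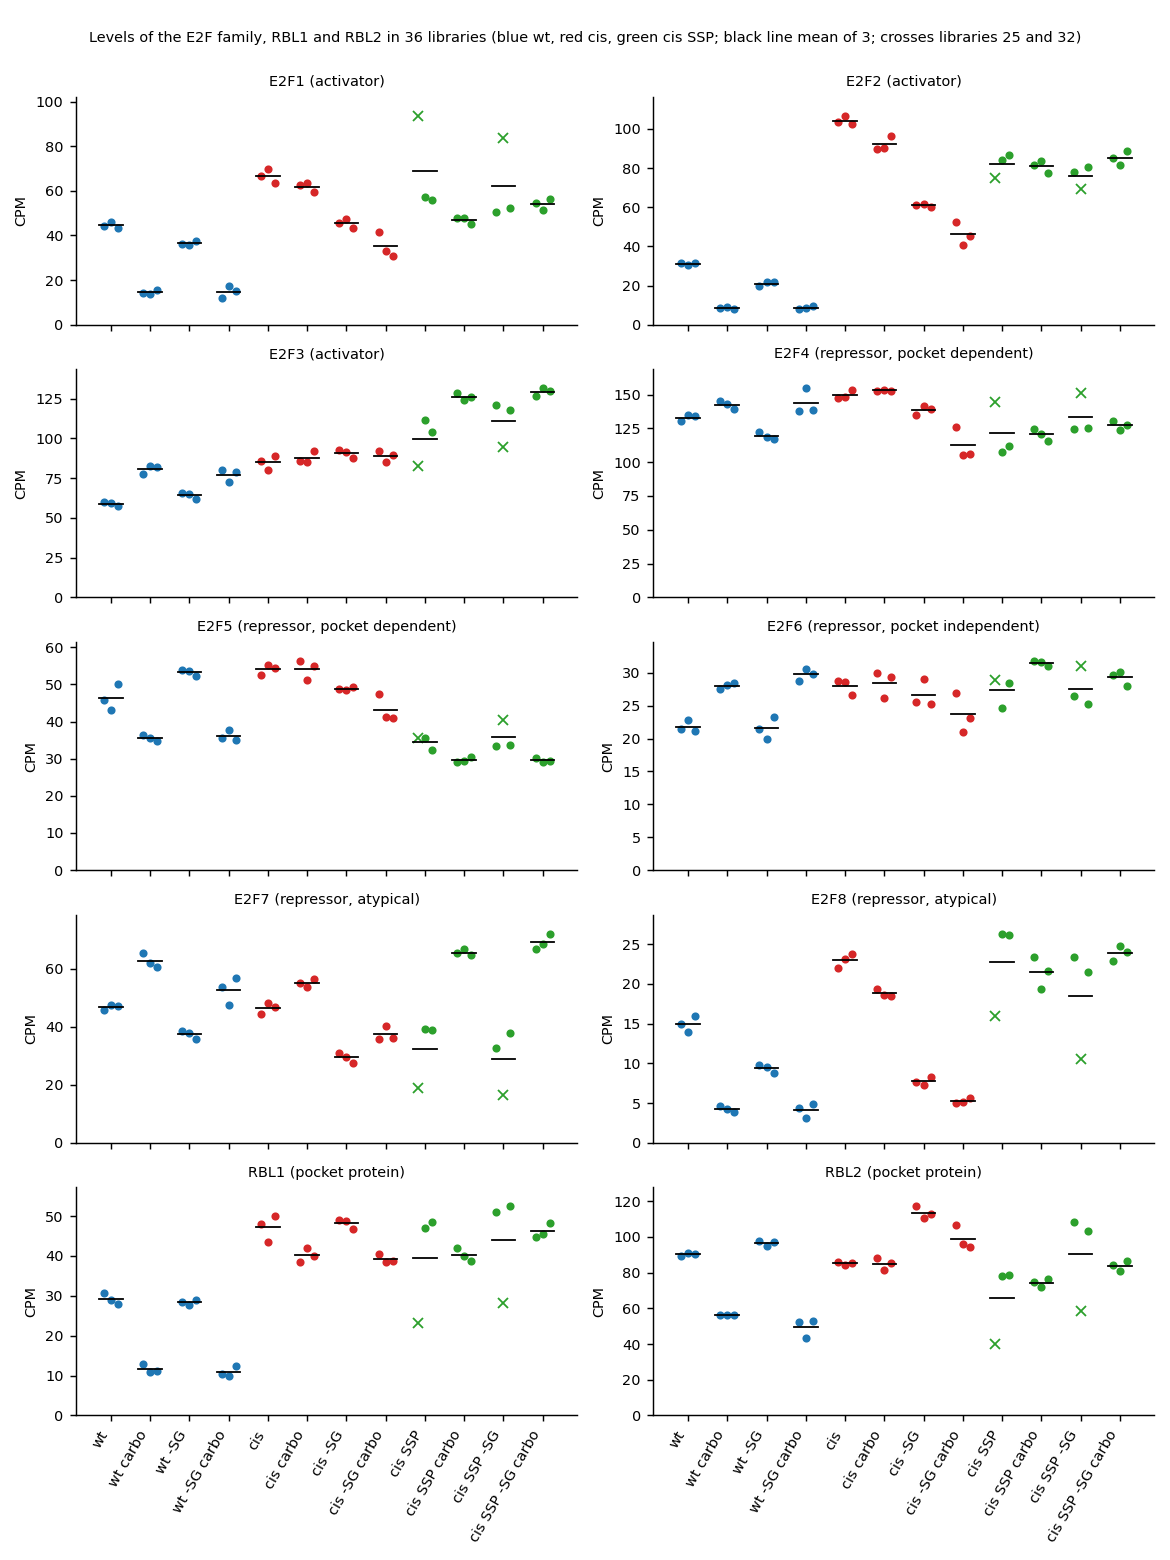
CPM of each member in the 36 libraries by condition (wt blue, cis red, cis SSP green). Points are libraries, black lines are means of 3 libraries, and crosses mark libraries 25 and 32. E2F2 lies at 8.01 to 31.5 CPM in wt cells and at 40.8 to 106.8 CPM in cis cells, while E2F4 stays between 105.2 and 154.6 CPM in all libraries.

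The first comparison asked how the sensitive cells respond to carboplatin. E2F1, E2F2, E2F5, E2F8, RBL1 and RBL2 fell in wt cells, and E2F3, E2F4, E2F6 and E2F7 rose. E2F2 had 31.4, 30.5 and 31.5 CPM in the 3 untreated libraries and 8.29, 8.81 and 8.04 CPM in the 3 treated ones. E2F1 had 44.2, 46.2 and 43.3 CPM untreated and 14.2, 13.9 and 15.4 CPM with carboplatin. In both activators the groups were far apart, and the treated libraries lay close together. E2F2 fell by 1.88 ± 0.0733 on the log2 scale (SE, 3 libraries against 3; edgeR adjusted p = 1.74e-105), a 3.68-fold drop. E2F1 fell by 1.60 ± 0.059 (edgeR adjusted p = 2.28e-114). The activator E2F3 went the other way: it had 60.1, 59.3 and 57.6 CPM untreated and 77.9, 82.5 and 82.1 CPM treated, a log2 fold change of 0.47 ± 0.037 (edgeR adjusted p = 2.44e-33).

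Among the repressors, the atypical pair E2F7 and E2F8 split in the same treatment. E2F8 had 14.9, 14 and 15.9 CPM in untreated wt cells and 4.6, 4.22 and 3.84 CPM with carboplatin. E2F7 had 45.8, 47.5 and 47.1 CPM untreated and 65.3, 62.0 and 60.4 CPM treated. E2F8 thus moved in the direction of E2F1 and E2F2, and E2F7 in that of E2F3. The log2 fold change of E2F8 was -1.80 ± 0.104 and that of E2F7 was 0.44 ± 0.0413 (edgeR adjusted p = 4.68e-57 and 6.2e-24). E2F6, the partner of polycomb factors, rose by 0.38 ± 0.0596 and E2F4, the DREAM subunit, by 0.12 ± 0.0272 on the log2 scale. E2F5 fell by 0.36 ± 0.0475. The rise of E2F4 did not pass the threshold with total counts in place of TMM (0.05, edgeR adjusted p = 0.0915) or in one fit over the 36 libraries (0.11, edgeR adjusted p = 0.288).

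Both pocket proteins fell in treated wt cells. RBL1 had 30.8, 29 and 28 CPM untreated and 12.8, 11 and 11.2 CPM with carboplatin, a log2 fold change of -1.30 ± 0.0688 (edgeR adjusted p = 1.61e-65). RBL2 had 89.4, 91.2 and 90.6 CPM untreated and 56.3, 56.3 and 56.4 CPM treated, a log2 fold change of -0.67 ± 0.0364. Neither gene showed overlap between the groups. In all, 4 members rose and 6 fell. This stands against a broad response, in which 38.9% of 14639 genes tested rose and 39.0% fell. In such bulk libraries, fewer cycling cells and less RNA of these genes per cell cannot be told apart.

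The other genes of the pathway were read in the same fit from lists that share a few genes. Of 35 G1/S genes that E2F proteins are known to activate, 32 fell and 2 rose in treated wt cells. Their median on the log2 scale was -1.19, against -0.00 over all genes tested. CCNA2 (cyclin A2) fell from 175.3 to 36.5 CPM, and PRIM1 and POLE2, which encode DNA primase and polymerase subunits, fell by 1.75 and 1.74 on the log2 scale. PCNA (the sliding clamp) and CCNE1 (cyclin E1) were the 2 that rose. Of 18 G2/M genes all 18 fell (median -2.01), and of 19 p53 targets all 19 rose (median 1.54), led by GDF15 and by CDKN1A, the gene of the CDK inhibitor p21, which went from 140.8 to 1769.7 CPM. Of 7 MuvB and MYB genes, 5 fell and 1 rose. MYBL2, the B-MYB factor that replaces pocket proteins on MuvB, fell by 1.45 and LIN52, the MuvB subunit that recruits RBL2, by 1.75 on the log2 scale. MYBL1 rose by 0.81. The DP genes TFDP1 and TFDP2 fell by 0.37 and 0.38. Of 7 polycomb partners of E2F6, 2 rose (MAX, 0.88, and L3MBTL2, 0.71) and 4 fell, CBX3 by 0.61. Of 6 genes that control E2F protein breakdown, 4 fell and 1 rose, with SKP2 down by 1.41 and CCNF (cyclin F) by 1.11. Of 8 G1 kinases and cyclins 3 rose and 3 fell, and of 6 CDK inhibitors 2 rose and 4 fell.

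In cis cells the same treatment left most members close to their untreated level. E2F2 had 103.3, 106.8 and 102.7 CPM untreated and 89.8, 90.5 and 96.6 CPM with carboplatin, and E2F8 had 22, 23.1 and 23.7 CPM against 19.4, 18.6 and 18.5 CPM. RBL1 had 48.0, 43.5 and 50 CPM untreated and 38.4, 42.1 and 40.1 CPM treated. These 3 genes fell, with log2 fold changes of -0.15 ± 0.0373, -0.26 ± 0.0668 and -0.21 ± 0.055 (edgeR adjusted p = 0.00474, 0.00609 and 0.00773). E2F7 had 44.3, 48.0 and 46.7 CPM untreated and 54.9, 53.6 and 56.3 CPM treated, and it rose by 0.27 ± 0.0463 on the log2 scale (edgeR adjusted p = 7.76e-05). The groups did not overlap in these 4 genes. E2F1 had a log2 fold change of -0.08, with an interval of 2 SE from -0.18 to 0.01, and RBL2 one of 0.03 (-0.05 to 0.10). With 1 member higher and 3 lower, the count is set against 9.27% and 10.8% of 13458 genes tested. DESeq2 called 2 of the 4 (not E2F8 and RBL1), one fit over the 36 libraries called none, and RBL1 was not called without cis carbo replicate 1 (-0.17, edgeR adjusted p = 0.0622).

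The lists of the pathway moved in the same directions by less. Of 35 G1/S genes 24 fell and 3 rose (median -0.14), of 18 G2/M genes 13 fell (median -0.18), and of 18 p53 targets all 18 rose (median 0.53). CDKN1A went from 92.3 to 321.8 CPM in cis cells. MYBL2 fell by 0.22 and LIN52 by 0.32 on the log2 scale, and neither DP gene was called. PCNA, CCNE1 and RRM2, the small subunit of ribonucleotide reductase, were the 3 G1/S genes that rose.

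The difference between the lines was tested with an interaction term, where a positive value means a higher log2 fold change in cis than in wt cells. E2F2, E2F8 and E2F1 differed by 1.74 ± 0.0785, 1.55 ± 0.124 and 1.52 ± 0.075 (SE, 12 libraries; edgeR adjusted p = 1.14e-27, 7.94e-17 and 6.73e-26). RBL1 differed by 1.10 ± 0.09, RBL2 by 0.70 ± 0.0509 and E2F5 by 0.40 ± 0.0688. These are the 6 members that fell in wt cells. The members that rose there had the opposite sign, with E2F3 at -0.39 ± 0.0551, E2F6 at -0.31 ± 0.0845 and E2F7 at -0.16 ± 0.0616. E2F4 differed by -0.05 (-0.13 to 0.03 at 2 SE) and was not called. That gives 6 members higher and 3 lower, beside 30.3% and 27.2% of 15300 genes tested. The difference for E2F7 was the least stable: it did not pass the threshold with DESeq2 (-0.18), no filter (-0.13), one fit over the 36 libraries (-0.17) or total counts (-0.11), nor without replicate 2 of cis (-0.15) or of cis carbo (-0.14). The DP genes differed as well, TFDP1 by 0.33 and TFDP2 by 0.27.

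**Figure D2:**
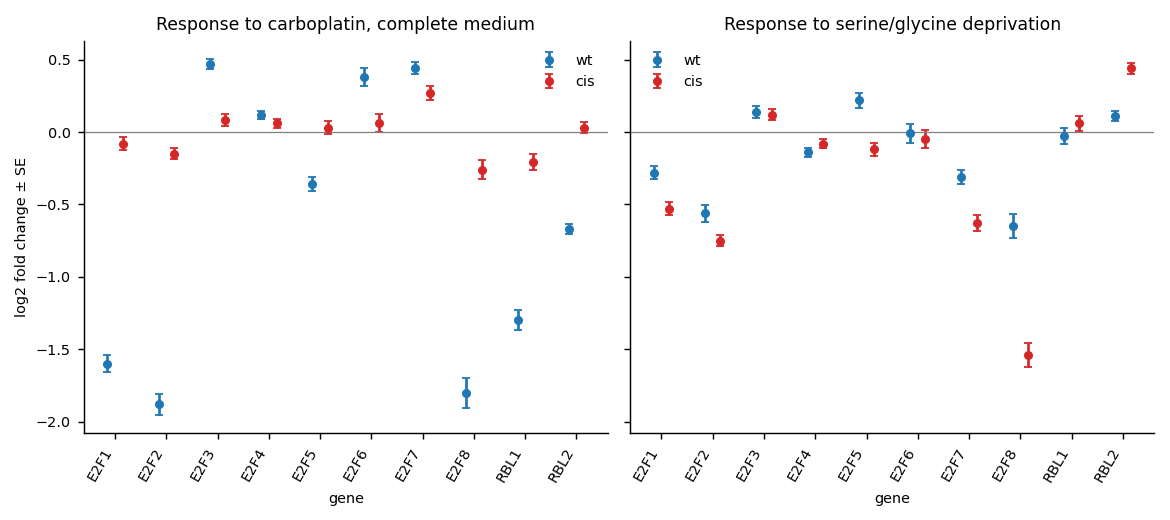
Log2 fold change ± SE of each member with carboplatin in complete medium (left) and with serine/glycine deprivation (right), in wt (blue) and cis (red) cells, 3 libraries against 3. With carboplatin E2F2 lies at -1.88 in wt and -0.15 in cis cells, and with deprivation E2F8 lies at -0.65 in wt and -1.54 in cis cells.

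In cis SSP cells the carboplatin comparison includes library 25. No member passed the threshold in the fit of all 6 libraries (edgeR), 3 had an unadjusted p under 0.05, and DESeq2 called E2F7 alone. The background was low, with 1.97% of 13885 genes tested higher and 0.749% lower (72.4% of the called genes higher, and 60.3% with total counts in place of TMM). E2F7 had 19, 39.1 and 38.8 CPM in untreated libraries 25 to 27 and 65.2, 66.8 and 64.6 CPM in treated ones. Every treated library was thus above every untreated one, and library 25 was the lowest. Without library 25 the log2 fold change of E2F7 was 0.75 (edgeR adjusted p = 7.87e-13) and 8 members were called. E2F3, E2F4 and E2F6 were then higher (0.22, 0.13 and 0.24) and E2F1, E2F5, E2F8 and RBL1 lower (-0.27, -0.19, -0.29 and -0.25), while E2F2 (-0.08) and RBL2 (-0.08) were not called. One fit over the 36 libraries, library 25 included, called E2F1, E2F3, E2F5 and E2F7. Without library 25, 41.2% of 14170 genes tested were called in either direction. RRM2 was the 1 G1/S gene of 35 that rose, and 10 of 18 p53 targets rose.

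**Figure D3:**
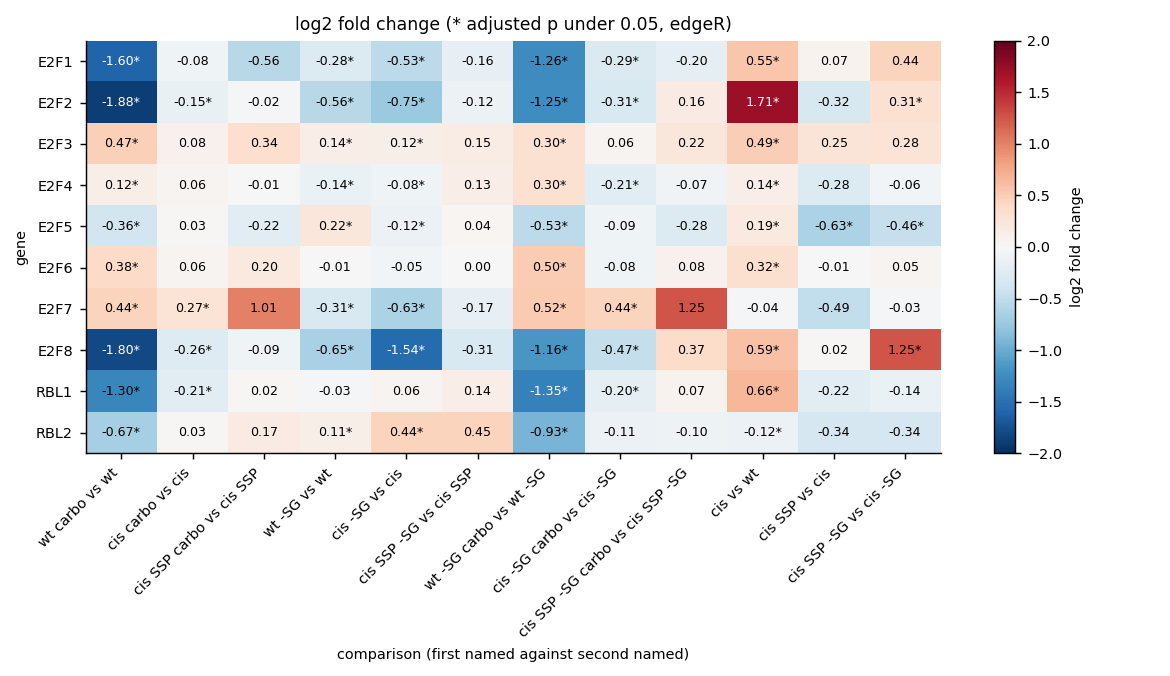
Log2 fold change of the 10 members (rows) in the 12 comparisons of pairs of conditions (columns), red where the condition named first is higher, with an asterisk where the edgeR adjusted p is under 0.05. E2F7 is positive in all 6 carboplatin columns (0.27 to 1.25), of which 4 carry an asterisk, and E2F8 lies at -1.80 in treated wt cells and -1.54 in deprived cis cells.

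The next comparisons asked what serine/glycine deprivation did in each line. In wt cells E2F8, E2F2, E2F7, E2F1 and E2F4 fell and E2F5, E2F3 and RBL2 rose. E2F8 had 14.9, 14 and 15.9 CPM in complete medium and 9.82, 9.58 and 8.8 CPM without serine and glycine, a log2 fold change of -0.65 ± 0.0842 (edgeR adjusted p = 1.94e-06). E2F2 had 31.4, 30.5 and 31.5 CPM against 19.8, 21.6 and 21.7 CPM, a log2 fold change of -0.56 ± 0.0587. The conditions did not overlap in either gene. E2F7 and E2F1 fell by 0.31 and 0.28 and E2F4 by 0.14, while E2F5 rose by 0.22, E2F3 by 0.14 and RBL2 by 0.11 on the log2 scale. The 3 members that rose and 5 that fell compare with 24.1% and 25.1% of 14284 genes tested. One fit over the 36 libraries called 3 members, DESeq2 did not call E2F3 (0.14) and RBL2 (0.10), and RBL2 was not called without wt replicate 1 (0.10, edgeR adjusted p = 0.0515). The G1/S list fell in 33 of 35 genes (median -0.40), led by CCNE2, FEN1 and RRM2.

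In cis cells the fall of the atypical repressors and of E2F1 and E2F2 was larger. E2F8 had 22, 23.1 and 23.7 CPM in complete medium and 7.67, 7.28 and 8.3 CPM in deprived cells, a log2 fold change of -1.54 ± 0.082 (edgeR adjusted p = 1.1e-21). E2F7 had 44.3, 48.0 and 46.7 CPM against 30.9, 29.7 and 27.6 CPM, a log2 fold change of -0.63 ± 0.0538. In cis cells both atypical genes therefore fell, unlike with carboplatin, where they split. E2F2 fell by 0.75 ± 0.0386 and E2F1 by 0.53 ± 0.0463 on the log2 scale. RBL2 rose from 85.8, 84.1 and 85.4 CPM to 117.0, 110.6 and 113.0 CPM, a log2 fold change of 0.44 ± 0.0366 (edgeR adjusted p = 5.66e-15). RBL1 had a log2 fold change of 0.06 (-0.04 to 0.16 at 2 SE), so the pocket proteins differed in call. E2F3 rose by 0.12, and E2F5 and E2F4 fell by 0.12 and 0.08. In total 2 members rose and 6 fell, against 37.6% and 37.4% of 14122 genes tested. The calls of these 3 genes were not stable. E2F3 was not called by DESeq2 (0.10), in one fit over the 36 libraries (0.06) or without cis replicate 2 (0.07), and it was the called member whose libraries overlapped. E2F4 was not called with total counts (-0.05), with at least 10 counts in every library (-0.06), in one fit over the 36 libraries (-0.14) or without cis -SG replicate 1 (-0.07). E2F5 was not called with total counts (-0.09) or with at least 10 counts in every library (-0.10).

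Among the other lists in deprived cis cells, 33 of 35 G1/S genes fell and 2 rose, EZH2 and MCM5 (median -0.63), and all 18 G2/M genes fell (median -1.35). MYBL2 fell from 263.4 to 88.7 CPM, and MYBL1 rose from 6.96 to 14 CPM. TFDP1 fell by 0.54 and TFDP2 rose by 0.70 on the log2 scale, so the DP genes split here as they did in deprived wt cells (-0.46 and 0.32). Of 6 E2F breakdown genes 5 fell, CCNF by 1.54 and SKP2 by 1.46, and 1 rose.

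The response to deprivation differed between the lines in 6 members. E2F8 was lower in cis by -0.87 ± 0.119 and RBL2 higher by 0.35 ± 0.0481 (interaction; edgeR adjusted p = 7.53e-08 and 6.82e-08). E2F5, E2F7, E2F1 and E2F2 had lower values in cis, at -0.32, -0.31, -0.23 and -0.17. With 1 member higher and 5 lower, the shares over 15418 genes tested were 27.1% and 26.9%. The interval of 2 SE for E2F3, which was not called, ran from -0.11 to 0.12. One fit over the 36 libraries called E2F2, E2F5 and E2F8 out of these 6. E2F2 was not called by DESeq2 (-0.20), with at least 10 counts in every library (-0.15), with total counts (-0.15), or without cis replicate 2 (-0.16) or wt -SG replicate 2 (-0.15). E2F4 was called with at least 10 counts in every library (0.10) and with total counts (0.11).

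In cis SSP cells the deprivation comparison holds both libraries that stood apart. No member had an unadjusted p under 0.05 in edgeR, none was called by DESeq2, and 0.0218% of 13736 genes tested were higher and 0% lower. RBL2 had 40.2, 78.3 and 78.8 CPM in complete medium and 108.3, 58.7 and 103.5 CPM without serine and glycine. The low value in each condition came from library 25 or 32. With both left out, 2 libraries a condition remained, and 6 members were called, while 35.9% of 13925 genes tested were called in either direction. RBL2 and E2F4 were then higher by 0.42 and 0.18 and E2F3 by 0.14, and E2F8, E2F1 and E2F2 were lower, at -0.23, -0.15 and -0.12 (edgeR adjusted p = 6.49e-09 for RBL2 and 0.014 for E2F8).

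The drug was also added to deprived cells. In deprived wt cells the same directions were seen as in complete medium. E2F1 had 36.2, 35.8 and 37.4 CPM without drug and 12, 17.4 and 15 CPM with it, a log2 fold change of -1.26 ± 0.112 (edgeR adjusted p = 6.74e-06). RBL1 had 28.5, 27.7 and 29 CPM against 10.4, 10.0 and 12.3 CPM (-1.35 ± 0.0868), and RBL2 97.6, 94.6 and 96.9 CPM against 52.5, 43.3 and 52.9 CPM (-0.93 ± 0.079). Library 11, the second of the treated ones, was the highest of them for E2F1 and the lowest for RBL2. E2F2 and E2F8 fell by 1.25 and 1.16 and E2F5 by 0.53 on the log2 scale. E2F7 rose by 0.52, E2F6 by 0.50, and E2F3 and E2F4 by 0.30 each. These 4 higher and 6 lower members stand beside 34.3% and 34.6% of 14467 genes tested, and all 10 calls held with any of the 6 libraries left out. Without library 11 the log2 fold change was -1.40 for E2F1, -1.29 for RBL1 and -0.84 for RBL2.

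In deprived cis cells 1 member rose and 5 fell with carboplatin, against 10.9% and 11.6% of 14476 genes tested. Of the called genes 48.4% were higher, and 61.1% with total counts in place of TMM. E2F7 had 30.9, 29.7 and 27.6 CPM without and 35.8, 40.2 and 36.2 CPM with drug, a log2 fold change of 0.44 ± 0.0764 (edgeR adjusted p = 0.00178). E2F8 had 7.67, 7.28 and 8.3 CPM against 5.0, 5.12 and 5.63 CPM, a log2 fold change of -0.47 ± 0.117. E2F7 and E2F8 thus split again. E2F2, E2F1, E2F4 and RBL1 fell by 0.31, 0.29, 0.21 and 0.20. The different scaling of CPM and fits shows in this comparison. E2F3 went from a mean of 90.8 to 88.9 CPM, while its log2 fold change was 0.06 (not called). In treated libraries 22, 23 and 24, E2F1 had 41.6, 33.1 and 30.7 CPM, E2F2 52.4, 40.8 and 45.4 CPM, and E2F4 126.1, 105.2 and 106.3 CPM. The untreated libraries had 43.5 to 47.4, 60.1 to 61.9 and 135.2 to 141.6 CPM, so library 22 lay closest to them. RBL1 had 40.6, 38.4 and 38.8 CPM treated. Without library 23 or 24, which had many reads on no feature, E2F7 had a log2 fold change of 0.35 or 0.45 and was called. E2F2 (-0.26 or -0.31), E2F4 (-0.20 or -0.19) and RBL1 (-0.22 or -0.20) were called as well. No fit left out both libraries 23 and 24. E2F1 was not called without library 24 (-0.21, edgeR adjusted p = 0.0744) or without cis -SG replicate 1 (-0.29) or 2 (-0.27), nor E2F8 without cis -SG replicate 3 (-0.42). DESeq2 did not call E2F8 (-0.48), and one fit over the 36 libraries called E2F2 alone. RBL2 was called when no filter on low counts was used (-0.13).

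In deprived cis SSP cells no member was called with all 6 libraries (edgeR), 1 had an unadjusted p under 0.05 and DESeq2 called 1, E2F7 in both cases, while 1.17% of 13541 genes tested were higher and 0.295% lower. E2F7 had 32.7, 16.5 and 37.8 CPM without drug, library 32 being the low one, and 66.7, 68.5 and 72.0 CPM with it. The log2 fold change of E2F7 was 1.25 ± 0.285 (edgeR adjusted p = 0.107), and without library 32 it was 0.99 (edgeR adjusted p = 4.8e-11). In that fit 7 members were called: E2F7, E2F6, E2F2 and E2F3 higher and RBL2, E2F5 and RBL1 lower. The calls in either direction made up 41.1% of 13833 genes tested in that fit. E2F1 (0.10) and E2F8 (0.11) were not called.

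The lines were then compared without drug. Untreated cis cells had more RNA than wt cells for all 3 activators, with E2F2 showing the widest gap. E2F2 had 31.4, 30.5 and 31.5 CPM in wt and 103.3, 106.8 and 102.7 CPM in cis cells, a log2 fold change of 1.71 ± 0.0422 (edgeR adjusted p = 1.74e-34). E2F1 had 44.2, 46.2 and 43.3 CPM against 66.8, 69.9 and 63.4 CPM (0.55 ± 0.0448), and E2F3 60.1, 59.3 and 57.6 CPM against 85.6, 80.4 and 89.1 CPM (0.49 ± 0.0402). No activator overlapped between the lines. RBL1 was higher by 0.66 ± 0.0543 and E2F8 by 0.59 ± 0.0703 on the log2 scale. E2F6, E2F5 and E2F4 were higher by 0.32, 0.19 and 0.14, and RBL2 was lower (-0.12), where one fit over the 36 libraries did not call E2F4 (0.16) and RBL2 (-0.10). E2F7 had a log2 fold change of -0.04 (-0.14 to 0.05 at 2 SE) and was not called. The 8 members higher and 1 lower compare with 39.4% and 39.1% of 14431 genes tested. The G1/S list showed no such lean, with 16 of 35 genes higher and 13 lower (median 0.02), and the DP genes were lower in cis cells, TFDP1 from 252.9 to 150.9 CPM and TFDP2 from 101.5 to 71.2 CPM.

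Between cis SSP and cis cells in complete medium, E2F5 was the member called with all libraries. It had 52.6, 55.2 and 54.4 CPM in cis and 35.6, 35.5 and 32.3 CPM in cis SSP cells, a log2 fold change of -0.63 ± 0.0932 (edgeR adjusted p = 0.00415). No overlap was seen, and for E2F5 library 25 (35.6 CPM) lay beside library 26 (35.5 CPM). That is 0 members higher and 1 lower, beside 15.8% and 13.3% of 13714 genes tested. Without library 25 E2F5 stayed at -0.63 and 7 members were called. As 65.4% of 14154 genes tested were then called in either direction, this is near the background share. E2F3 and E2F8 were then higher (0.38 and 0.23), and E2F4, E2F2, E2F7 and E2F1 lower (-0.41, -0.24, -0.21 and -0.20). E2F1 had a log2 fold change of 0.07 with library 25, so its sign depended on that library.

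Between the same lines in deprived cells, E2F8 and E2F2 were higher in cis SSP cells and E2F5 lower. E2F8 had 7.67, 7.28 and 8.3 CPM in cis -SG and 23.4, 10.6 and 21.5 CPM in cis SSP -SG, a log2 fold change of 1.25 ± 0.299 (edgeR adjusted p = 0.0166). The lowest of these cis SSP libraries, library 32, was still above all cis libraries. E2F2 differed by 0.31 ± 0.0977 and E2F5 by -0.46 ± 0.11. Of 14342 genes tested 21.6% were higher and 23.2% lower, so 2 members higher and 1 lower is no more than the background share. Without library 32 the value of E2F8 was 1.53 (edgeR adjusted p = 2.05e-20) and 8 members were called, E2F7 with a log2 fold change of 0.25 against -0.03 in all libraries. In that fit 75.5% of 14732 genes tested were called in either direction, so 8 of 10 is near the background share. Without any 1 of the 3 cis -SG libraries none of the 3 members was called (E2F8 at 1.20 to 1.30), E2F2 and E2F5 were not called when no filter on low counts was used (0.33 and -0.43) nor E2F2 with total counts (0.24), and without library 31 or 33 E2F8 was the member called (1.05 and 1.16). MYBL2 was higher in cis SSP -SG, 260.1 against 88.7 CPM, and 26 of 35 G1/S genes were higher (median 0.56).

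Activators were set against repressors by summing CPM per kb of E2F1 to E2F3 and of E2F4 to E2F8 in each library. In wt cells the activators held 34.6% to 36% of the sum in the 3 libraries, and with carboplatin 25.2% to 27.1%. Deprived wt cells had 34.3% to 35.3%, and 25.3% to 26.7% with carboplatin. The treated libraries were below all untreated ones, and deprivation alone left overlapping ranges. In cis cells the share was 45.5% to 46.6%, with carboplatin 43.6% to 44.5%, deprived 42.5% to 43.9%, and 42.5% to 43.1% with both. In cis SSP cells it was 50.3% to 51.8%, with carboplatin 47.6% to 48%, deprived 49.5% to 50.1%, and 48.2% to 49.1% with both. The lines did not overlap in this share. Libraries 25 and 32 lay within 2 percentage points of the other libraries of their condition. The sum of the activators fell from 33.6 ± 0.608 to 22.5 ± 0.619 CPM per kb in wt cells with carboplatin (SD, n = 3), and that of the repressors was 61.1 ± 1.08 and 63.4 ± 1.3. E2F4 alone made up 37 of the 61.1 CPM per kb in untreated wt cells, so this sum hides the split of E2F7 and E2F8. The shares depend on the length used. With the longest transcript E2F4 had 50.8 CPM per kb in wt cells, and the shares were not computed with that length. No test was run on these sums. With 3 libraries against 3, no two-sided exact permutation test could reach the threshold, since the smallest p it allows is 0.1.

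The ratio of E2F1 to E2F7 in CPM per kb was lower with the drug in every line in complete medium. It was 2.23 ± 0.0671 in wt cells and 0.545 ± 0.0465 with carboplatin, and 3.37 ± 0.175 and 2.63 ± 0.157 in cis cells. In cis SSP cells it ran from 3.36 to 11.5 without drug, the top value being library 25, and from 1.64 to 1.72 with drug. The ranges with and without drug were separate in each line. In wt cells this pair joins a member that fell and a member that rose, so the ratio restates those changes. In cis cells E2F7 rose by 0.27 on the log2 scale and E2F1 was not called (-0.08). E2F8, the other atypical repressor, went from 3.61 to 1.02 CPM per kb in wt cells with carboplatin, and no ratio to E2F8 was computed. The ratio of RBL2 to RBL1 in CPM per kb was 2.27 ± 0.129 in wt, 1.33 ± 0.0841 in cis and 1.23 ± 0.0421 in cis SSP cells. With carboplatin it was 3.56 ± 0.289, 1.56 ± 0.13 and 1.36 ± 0.0739.

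**Figure D4:**
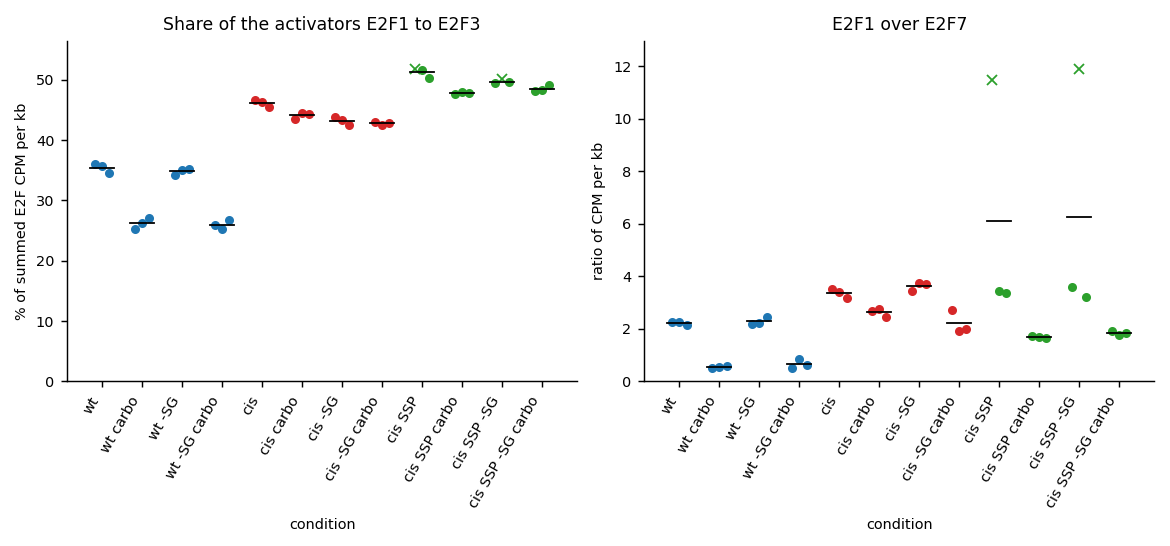
Share of the activators E2F1 to E2F3 in the summed CPM per kb of E2F1 to E2F8 (left, in %) and the ratio of E2F1 to E2F7 in CPM per kb (right), by condition. Points are libraries, lines are means of 3, and crosses are libraries 25 and 32. The share is 25.2% to 36% in wt, 42.5% to 46.6% in cis and 47.6% to 51.8% in cis SSP libraries, and both crosses lie above 11 in the ratio.

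Across the 12 condition means, E2F2 had a Pearson r of 0.95 with E2F1 and with RBL1, and E2F8 one of 0.89 with E2F1. E2F3 and E2F5 had an r of -0.67. Without libraries 25 and 32 these values were 0.95, 0.95, 0.87 and -0.70. The conditions come from 3 lines that share cells and media, so these values are a description over n = 12 points. Among 11468 genes with a mean of at least 50 counts, those most like E2F1 were EFNA3 (0.992), CHEK1 (0.992), the checkpoint kinase gene, and CENPQ (0.988). Those most like E2F8 were FAM83D (0.993), CDCA4 (0.990) and CDCA5 (0.988). For E2F2 they were MBNL1 (0.994), AIF1L (0.993) and NAAA (0.992), and for RBL1 EFHD1 (0.988), PREX1 (0.983) and DIS3L (0.979). E2F4 and E2F7 had lower best values, 0.880 with ACIN1 and 0.912 with PARD6G. For E2F3 the closest was CNST (0.985), for E2F5 UBOX5 (0.962), for E2F6 ASB6 (0.959) and for RBL2 SLC25A36 (0.979). Without libraries 25 and 32, 2 or 3 of the 3 closest genes stayed among the closest 3 for E2F1, E2F2, E2F3, E2F5 and E2F6, 1 for E2F4, E2F7, E2F8 and RBL1, and 0 for RBL2. The closest gene was then MYBL2 for E2F8 (0.993), LRP11 for RBL1 (0.996) and NEDD4 for RBL2 (0.976). These 3 genes were named after their values were seen.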

How the data were processed

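RNA-seq libraries of 12 conditions were grouped by the GEO labels. The authors aligned reads with STAR to GRCh37.p13 and counted them on exons of GENCODE v19 with HTSeq, and they deposited raw counts of each gene in each library. The strand setting of the counting and the treatment of reads with several alignments are not given in the sources used here. Total counts were 13074937 to 20441582 per library, which sets the counting error. The 3 rows that name no gene stayed out, and the row for no feature held 4.21% to 17.9%. A reference list of gene names gave a symbol to 55538 of 57820 identifiers, and GENCODE v44 mapped to GRCh37 gave positions and lengths. Replicate pairs had a mean chi-square of 1.2 to 123, and all were kept as separate libraries. The lowest values, 1.2 (libraries 10 and 12) and 1.36 (libraries 4 and 5), lie close to counting error. For such pairs the value cannot show that the libraries are independent.

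Each comparison was fitted on all genes of its own conditions with edgeR 4.0.16 in R 4.3.3 (TMM, filterByExpr, glmQLFit with robust estimation, glmQLFTest). P-values were adjusted over all genes (Benjamini-Hochberg), and a gene was called under 0.05. All 10 members passed the filter in each fit. SE is the absolute log2 fold change divided by the square root of F. A positive value means higher in the condition named first. The study names DESeq2, which was an alternative here (1.42.0). The others were DESeq2's size factors, total counts, 2 filters, one fit over the 36 libraries, a minimum log2 fold change of 1, each library left out, libraries 25 and 32 left out together, the longest transcript as length and Spearman rho for likeness. The fits were tested on simulated counts with the same spread for all genes and libraries. No simulated library stood apart as libraries 25 and 32 do, so the simulation cannot speak for fits that hold those libraries. Python 3.11.15, pandas 2.3.3 and matplotlib 3.10.9 were used. The members and lists were chosen with earlier results of these data known. Named genes are the 10 members, TFDP1 and TFDP2, up to 3 called genes of each direction and list whose mean was 50 counts or more, and the 3 genes most like each member.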

Additional observations from a re-analysis of the deposited data

Results flagged for a closer look

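The response to carboplatin differed between cis and wt cells by the interaction test (edgeR) in 9 members. Over all 15300 genes tested, 30.3% were higher and 27.2% lower by this test. On the log2 scale the difference, cis minus wt, was 1.52 for E2F1, 1.74 for E2F2, -0.39 for E2F3, 0.40 for E2F5, -0.31 for E2F6, -0.16 for E2F7, 1.55 for E2F8, 1.10 for RBL1 and 0.70 for RBL2. The response to serine/glycine deprivation differed in 6 members, by -0.23 for E2F1, -0.17 for E2F2, -0.32 for E2F5, -0.31 for E2F7, -0.87 for E2F8 and 0.35 for RBL2. Of 15418 genes tested 27.1% were higher and 26.9% lower, so 6 of 10 members is near the background share. Some alternative fits did not call E2F7 for carboplatin, or E2F1, E2F2, E2F7 and RBL2 for deprivation. The collagen gene COL1A1, which separates wt from cis cells, moves with the difference in the carboplatin response (-3.10), and its part in it was not tested. COL1A2 went from 370.1 to 755.8 CPM with carboplatin in wt cells and from 0.0628 to 0.111 CPM in cis cells.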

How the results depend on the processing

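The directions of the members in wt cells with carboplatin were the same in all alternatives, and 9 (without E2F4, with total counts or in one fit over the 36 libraries) or 10 members were called in complete medium and 10 in deprived medium, unless a log2 fold change of at least 1 was asked for. With that rule the number of members called was 4 in wt cells with carboplatin in either medium, 0 in cis cells with carboplatin in either medium, 0 and 1 in wt and cis cells with deprivation, 1 in cis against wt cells, 0 and 1 in cis SSP against cis cells in complete and deprived medium, and 4 and 0 for the difference between the lines in the response to carboplatin and to deprivation. DESeq2 called 2 members in cis cells with carboplatin, 1 in cis SSP cells with carboplatin in either medium, and 2 in cis SSP against cis cells. Over all genes DESeq2 called 1346 of 11731 in cis cells with carboplatin and 4556 of 17852 in cis SSP against cis cells. In cis SSP cells with carboplatin it called 723 of 16480 in complete and 575 of 15084 in deprived medium. One fit over the 36 libraries, which shares 1 spread among all conditions, called 0 and 1 in cis cells with carboplatin in complete and deprived medium, 4 and 2 in cis SSP cells with carboplatin, 3 in wt cells with deprivation, 5 in cis SSP against cis cells in either medium, and 3 for the difference in the response to deprivation. The calls over all genes changed in the same direction in each of these comparisons. In complete medium with carboplatin, this fit called 401 of 16677 genes in cis cells, against 2702 of 13458 in the main fit. In cis SSP cells it called 3090 of 16677, against 377 of 13885. Without a filter on low counts 1 was called in cis SSP against cis cells without serine and glycine, beside 6528 of 29245 genes tested. Without libraries 25 and 32, 6 were called in cis SSP cells with deprivation, beside 35.9% of 13925 genes tested. When single libraries were left out, the number called was 0 to 8 in cis SSP cells with carboplatin, 0 to 7 in the deprived ones, and 1 to 7 and 0 to 8 in cis SSP against cis cells in complete and deprived medium. The highest of these counts came without library 25 or 32, where 41.2%, 41.1%, 65.4% and 75.5% of the genes tested were called. The sign turned without library 25 for E2F4 (-0.10 to 0.13 over the libraries left out) and RBL1 (-0.25 to 0.18) with carboplatin in cis SSP cells and for E2F1 (-0.20 to 0.19) against cis cells. It turned without library 32 for RBL1 (-0.15 to 0.21) with carboplatin in deprived cis SSP cells and for E2F7 (-0.23 to 0.25) against deprived cis cells. The cause was not tested. Spans, correlations and closest genes without libraries 25 and 32 were added after seeing the data. No paired analysis was possible because the labels give no replicate numbers within a condition. With 52 to 2740 counts for a member in a library, counting error limits E2F8 most.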
